A study of Mus musculus with 8 samples.

Results

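Sprouty, Spred, dual-specificity phosphatase and Il17rd genes encode the feedback inhibitors that restrain the pathway from fibroblast growth factor (FGF) receptors through Ras to the kinase ERK. The 10 genes examined here, Spry1, Spry2, Spry3, Spry4, Spred1, Spred2, Spred3, Dusp4, Dusp6 and Il17rd, were chosen by their symbol among the 18996 genes tested. Their RNA was compared between 4 epithelium and 4 mesenchyme samples, both dissected from the distal tips of wild type mouse lungs at E12.5. No treatment is named for either tissue. The tissues were parted with dispase and needles, and the study's methods leave the outer mesothelium with the mesenchyme. The labels give the strain as C57bl/6J and the series description gives BALb/c. Each of the 4 arrays carried 1 epithelium sample in the dye Cy3 and 1 mesenchyme sample in the dye Cy5, with no array the other way round, so that dye and tissue cannot be told apart in any value. The labels call the material an organ homogenate and do not say whether the samples came from separate embryos, so the spread behind the p-values may be technical.

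FGF ligands bind receptor tyrosine kinases and activate Ras, Raf, MEK and ERK, and ERK in turn induces transcription of many of its own inhibitors. Sprouty proteins act between the receptor and Raf, Spred proteins hold back Ras and Raf at the membrane, DUSP phosphatases remove the activating phosphates from MAP kinases, and Il17rd, also called Sef, is a transmembrane protein that restrains ERK signaling. In the lung bud, FGF10 made by the distal mesenchyme acts on FGFR2b of the epithelial tip. The first sprouty gene was found in Drosophila, where it limits branching of the airways.

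RefSeq's promoter table for GRCm38.p6 held 7 of the 10 genes. The 250 bases before the start site are shown for the members with the largest differences in each direction that the table held, Spry1 and Spry2 on the epithelial side and Dusp6 on the mesenchymal side. Capitals mark GGAA on either strand (written TTCC where it lies on the other strand), the invariant core of the sites bound by ETS factors, a family that includes the FGF-responsive Etv4 and Etv5. The Spry1 window lies on the plus strand at chr3:37639697-37639946, that of Spry2 on the minus strand at chr14:105896820-105897069 and that of Dusp6 on the plus strand at chr10:99262981-99263230.
Spry1: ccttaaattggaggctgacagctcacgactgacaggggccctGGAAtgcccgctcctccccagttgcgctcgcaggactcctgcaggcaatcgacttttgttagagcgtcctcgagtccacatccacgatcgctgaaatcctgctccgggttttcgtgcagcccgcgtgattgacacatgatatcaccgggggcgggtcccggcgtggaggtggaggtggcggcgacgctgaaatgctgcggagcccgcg
Spry2: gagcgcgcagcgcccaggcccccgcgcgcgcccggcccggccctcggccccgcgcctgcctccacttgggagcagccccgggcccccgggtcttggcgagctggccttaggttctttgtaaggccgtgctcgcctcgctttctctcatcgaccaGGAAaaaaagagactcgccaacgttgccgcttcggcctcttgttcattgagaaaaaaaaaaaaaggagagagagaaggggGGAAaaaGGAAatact
Dusp6: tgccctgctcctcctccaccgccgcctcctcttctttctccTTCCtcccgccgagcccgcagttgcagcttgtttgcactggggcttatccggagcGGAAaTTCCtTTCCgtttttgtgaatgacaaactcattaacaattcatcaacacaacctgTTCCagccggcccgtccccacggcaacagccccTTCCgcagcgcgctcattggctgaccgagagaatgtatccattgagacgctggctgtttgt
The Spry1 window held 1 match, the Spry2 window 3 and the Dusp6 window 6, the last with a pair of TTCC matches close behind a GGAA. The other windows held 4 matches for Spred1, 7 for Spred2, 1 for Spred3 and 4 for Il17rd. GGAA is common, since 93.4% of all 32851 promoters of this length held it, with a median of 3 matches and quartiles of 2 and 4. A longer ETS motif, CCGGAA, occurred in 12% of all promoters and in 0 of the 7. The AP-1 motif TGANTCA (6.75% of all promoters), the CRE motif TGACGTCA (1.55%) and the TCF/LEF motif CTTTGAT (3.21%) were also in 0 of the 7. All motifs were searched on both strands, CCGGAA contains GGAA, and the GGAA search was added after the first 4 searches were seen. The windows of Spry1 and Spry2 each had a GC content of 62.4% and that of Dusp6 56.4%, beside a median of 52.4% over all promoters.

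The values are quantile normalized log2 signals, each gene is represented by the probe with the highest mean signal, and a difference is epithelium minus mesenchyme on the log2 scale. A difference was called where the Benjamini-Hochberg adjusted p of limma's moderated test over all genes was under 0.05. By this rule 3 members were higher in the epithelium (Spry1, Spry2, Spred3), beside 21.2% of all genes called in that direction. There were 4 members higher in the mesenchyme (Spry3, Spry4, Spred2, Dusp6), beside 24.8% of all genes. Together 7 of 10 members were called, beside 45.9% of all genes in either direction, and 3 (Spred1, Dusp4, Il17rd) were not called. The share called depended on signal, with 17.8% among the dimmest 30% of genes and 58.0% among the others. Of the called members, Spry3, Spry4 and Spred3 lay among the dimmest 30%, so the count rests in part on weak signals. The 4 values of one tissue lay above all 4 of the other for the same 7 members, and for 44.3% of all genes. The median difference of the members was -0.13, and that of all genes was -0.03. In samples of many cells, fewer cells that express a gene and less RNA per cell cannot be told apart.

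**Figure D1:**
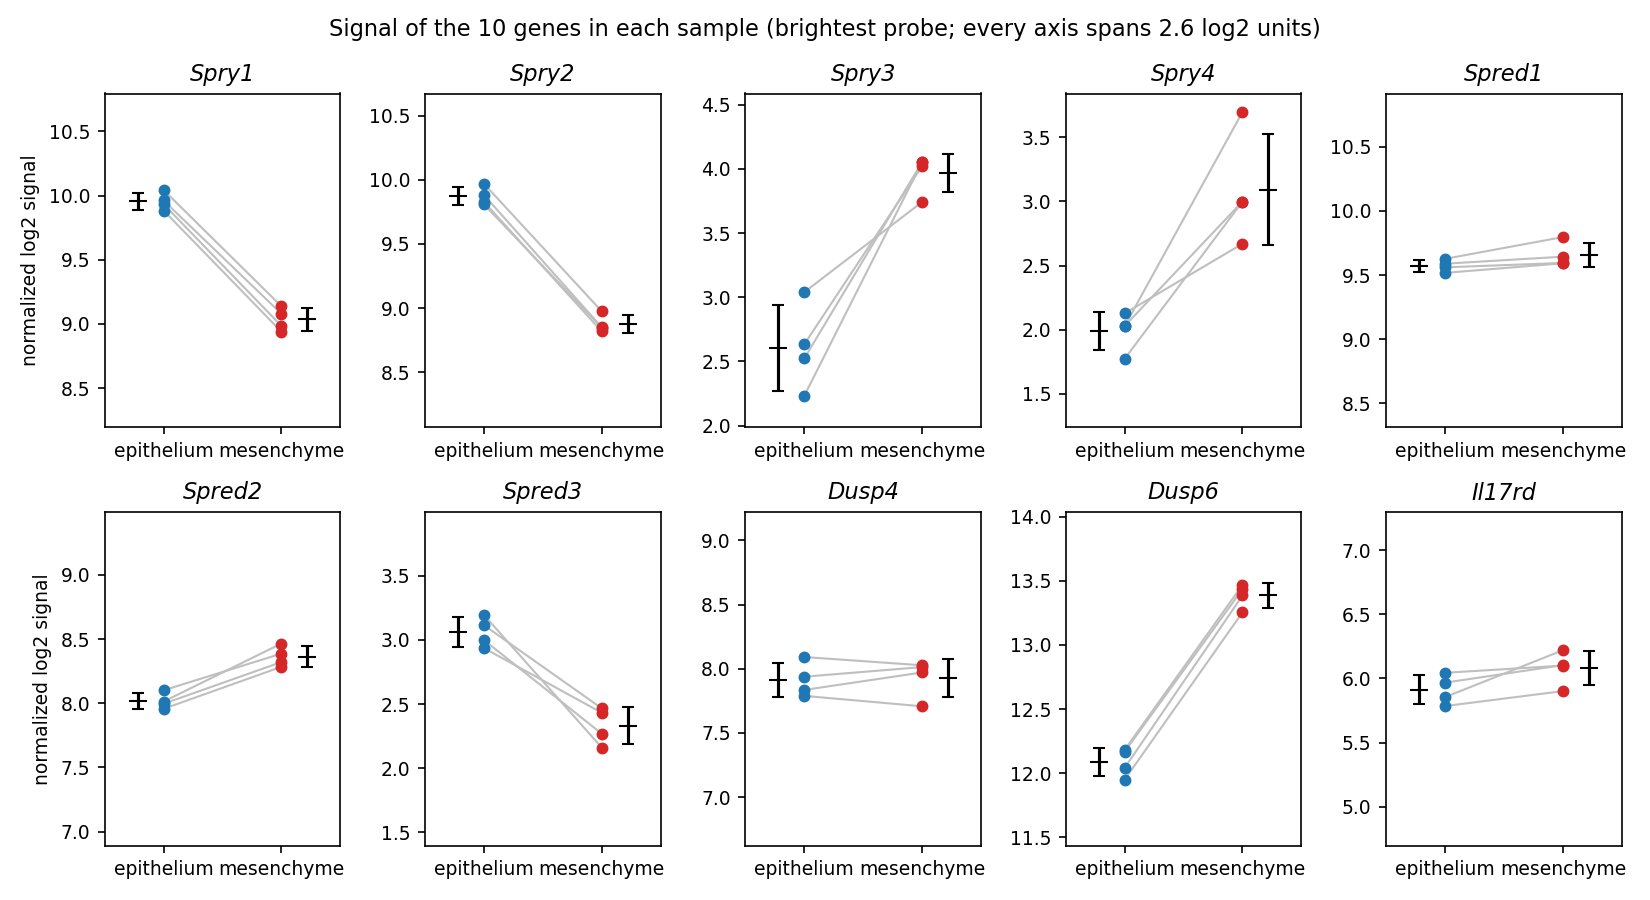
Normalized log2 signal (vertical axes, each spanning the same number of log2 units) of the 10 genes in the 4 epithelium (blue) and 4 mesenchyme (red) samples, with grey lines joining samples of one array and bars giving the mean and SD. Spry1, Spry2 and Spred3 lie higher in all epithelium samples, Spry3, Spry4, Spred2 and Dusp6 lie higher in all mesenchyme samples, and Spred1, Dusp4 and Il17rd overlap.

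Among the Sprouty genes, Spry1 and Spry2 were higher in the epithelium. Spry1, whose product antagonizes FGF and GDNF receptor signaling, had signals of 10.04, 9.96, 9.93 and 9.88 in epithelium replicates 1 to 4 and of 9.14, 9.08, 8.98 and 8.94 in mesenchyme replicates 1 to 4. The lowest epithelium sample lay above the highest mesenchyme sample, and the difference on single arrays ranged from 0.88 to 0.95. The means were 9.96 ± 0.0671 and 9.04 ± 0.0897 (SD, n = 4 each), a difference of 0.92 (SE 0.06, 95% interval 0.77 to 1.07), or 1.89-fold, with a limma adjusted p of 3.73e-06. A difference at least this large toward the epithelium was found in 7.40% of all genes.

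Spry2, the Sprouty gene best known from the tips of lung buds, had epithelium signals of 9.81, 9.88, 9.97 and 9.83 and mesenchyme signals of 8.85, 8.85, 8.98 and 8.82. The groups were parted on every array by 0.96 to 1.03. The means were 9.87 ± 0.0719 and 8.87 ± 0.0697 (SD, n = 4 each), a difference of 1.0 (SE 0.06, 95% interval 0.86 to 1.14), or 2.0-fold (limma adjusted p = 1.46e-06). This difference was measured by the probe to the transcript BG961926. The dimmer probe, to the reference transcript NM_011897, read 5.54, 5.60, 5.55 and 5.50 in epithelium replicates 1 to 4 and 5.54, 5.67, 5.58 and 5.61 in mesenchyme replicates 1 to 4, a difference of -0.05 (SE 0.06, limma adjusted p = 0.490 over all probes). The probes of Spry2 therefore disagreed, and which of them reads the gene better was not tested.

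Spry3 and Spry4 went the other way, both at weak signals. Spry3, a further Sprouty gene, read 2.63, 2.23, 2.52 and 3.04 in epithelium replicates 1 to 4 and 4.02, 4.05, 4.05 and 3.74 in mesenchyme replicates 1 to 4. All mesenchyme samples were higher, the difference on single arrays ran from -1.82 to -0.70, and the mean difference was -1.36 (SE 0.16, 95% interval -1.73 to -0.99), or 2.57-fold (limma adjusted p = 0.000132). A difference at least as large toward the mesenchyme was found in 4.93% of all genes. Its order against Dusp6 (-1.30) was not settled, since without epithelium replicate 2 Spry3 gave -1.24 and Dusp6 -1.33.

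Spry4, an inhibitor induced by FGF signaling in many embryonic tissues, read 2.13, 1.77, 2.03 and 2.03 in epithelium replicates 1 to 4 and 2.67, 3.0, 3.70 and 3.0 in mesenchyme replicates 1 to 4. The mesenchyme samples were all higher but spread widely, from 2.67 to 3.70. The difference was -1.10 (SE 0.20, 95% interval -1.56 to -0.64), or 2.15-fold (limma adjusted p = 0.00182). A further probe to the same transcript gave -0.33 (SE 0.13, limma adjusted p = 0.0709 over all probes) and was not called. Its groups overlapped, since mesenchyme replicate 3 read 2.27 there and the epithelium samples 2.05 to 2.37. That same sample was the highest, at 3.70, on the brighter probe.

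Both genes, and Spred3, lay among the dimmest 30% of genes tested, where the signals sat on steps shared by many features. Spry3, with a mean signal of 3.29, was just inside the limit of 3.31. The exact value of each of the 8 Spry3 signals was held by 356 to 1817 features of that sample, the Spry3 probe itself included. Counted in the same way, each Spry4 value was held by 321 to 2434 features and each Spred3 value by 645 to 3258. By contrast, each Spry1 value was held by 2 to 11 features and each Dusp6 value by 1 to 3. In the dimmest 30%, 17.8% of genes were called and 3.25% differed by 1 log2 unit or more, against 58.0% called among the other genes. Over all features, the mesenchyme samples had 4150 to 4330 distinct values and the epithelium samples 4824 to 5272. The values were thus coarser in the mesenchyme samples, for which dye and tissue cannot be told apart. The deposited values carry no flag for signals near background, and the part of the steps in these 3 differences was not tested.

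**Figure D2:**
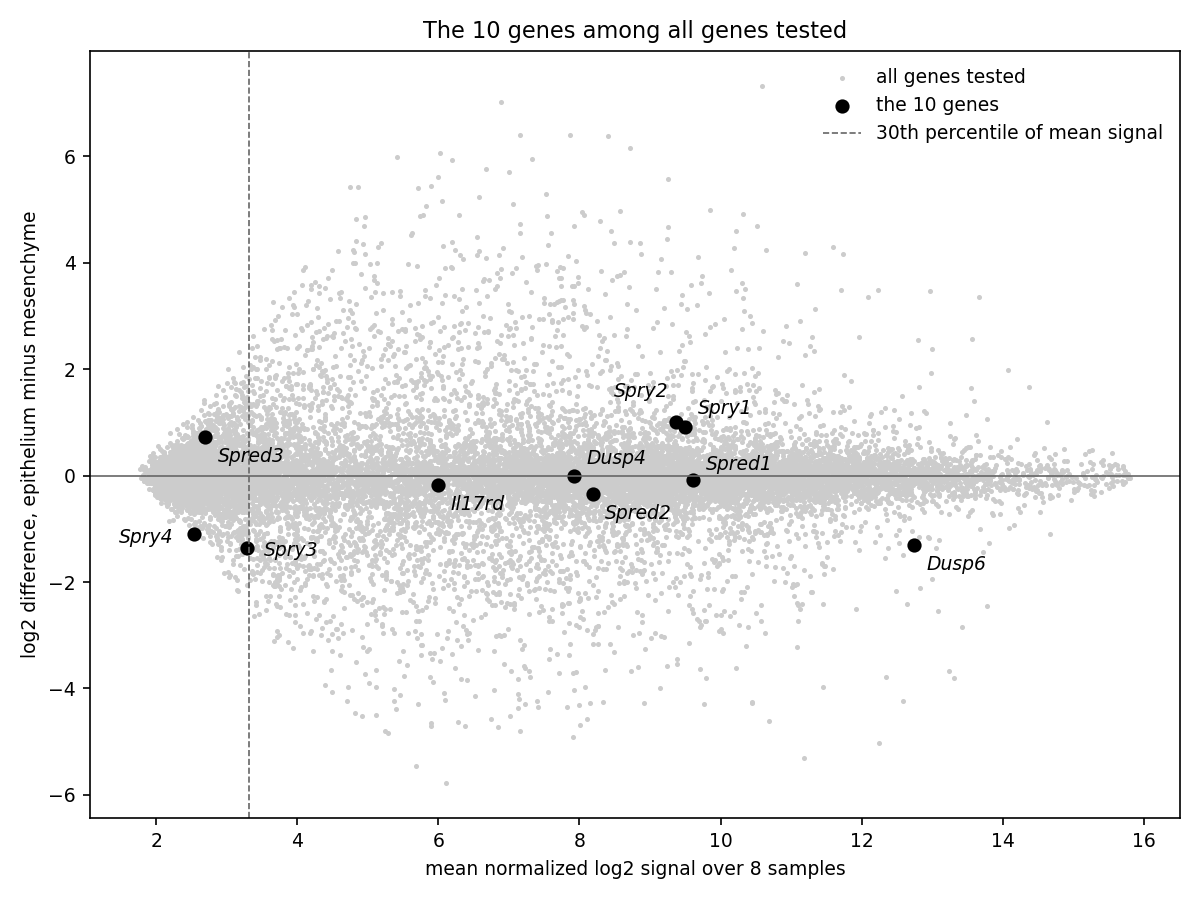
Difference between the tissues (vertical axis, epithelium minus mesenchyme, log2) against the mean log2 signal over the 8 samples (horizontal axis) for all genes tested (grey) and the 10 genes (black), with the 30th percentile of signal dashed. Spry3, Spry4 and Spred3 lie left of that line, where 17.8% of genes were called, and Dusp6 lies far to the right.

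The Spred genes gave different calls. Spred1, which recruits the Ras-inactivating protein neurofibromin to the membrane, read 9.52, 9.59, 9.63 and 9.56 in epithelium replicates 1 to 4 and 9.59, 9.64, 9.80 and 9.60 in mesenchyme replicates 1 to 4. The groups overlapped, although the mesenchyme sample was the higher one on 4 of 4 arrays (-0.17 to -0.03). The difference of -0.08 (SE 0.06, 95% interval -0.23 to 0.06) was not called (limma adjusted p = 0.323), and its interval does not reach the size measured for Spry1 in either direction. The dimmer probes gave -0.21 and 0.02 (limma adjusted p = 0.114 and 0.951 over all probes).

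Spred2, a further inhibitor of Ras and Raf, read 8.10, 8.01, 8.0 and 7.96 in epithelium replicates 1 to 4 and 8.39, 8.46, 8.32 and 8.28 in mesenchyme replicates 1 to 4. All mesenchyme samples were higher, with differences of -0.45 to -0.29 on single arrays. The difference was -0.35 (SE 0.06, 95% interval -0.49 to -0.21), or 1.27-fold (limma adjusted p = 0.00147). A difference at least as large toward the mesenchyme was found in 19.8% of all genes. A second probe was left out because it lacked values on array 4. On the other 3 arrays the epithelium read 4.19, 4.02 and 3.83 and the mesenchyme 4.41, 4.49 and 3.95, the higher value on each of them.

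Spred3, the family member whose product lacks a working Kit-binding domain, read 3.19, 3.11, 3.0 and 2.94 in epithelium replicates 1 to 4 and 2.16, 2.47, 2.27 and 2.43 in mesenchyme replicates 1 to 4. The groups did not overlap, and the difference was 0.73 (SE 0.09, 95% interval 0.52 to 0.93), or 1.66-fold (limma adjusted p = 0.000162). As the only probe of the gene gave signals on the shared steps of the dim range, no other measurement of Spred3 was at hand.

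The 2 phosphatase genes gave different calls. Dusp6, a cytoplasmic phosphatase that acts on ERK and is a common readout of FGF signaling, read 12.18, 12.17, 11.95 and 12.04 in epithelium replicates 1 to 4 and 13.47, 13.43, 13.25 and 13.39 in mesenchyme replicates 1 to 4. Every mesenchyme sample was higher, with differences of -1.34 to -1.27 on single arrays. The means were 12.09 ± 0.11 and 13.39 ± 0.0938 (SD, n = 4 each), a difference of -1.30 (SE 0.08, 95% interval -1.47 to -1.13), or 2.46-fold (limma adjusted p = 1.06e-06), and 5.23% of all genes had a difference at least as large toward the mesenchyme.

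Dusp4, an inducible nuclear phosphatase of MAP kinases, read 7.84, 7.94, 8.09 and 7.79 in epithelium replicates 1 to 4 and 7.97, 8.01, 8.03 and 7.71 in mesenchyme replicates 1 to 4. The groups overlapped and the sign differed between arrays, higher in the epithelium on 2 of 4. The difference was -0.02 (SE 0.10, 95% interval -0.24 to 0.20, limma adjusted p = 0.913). The dimmer probe, to the reference transcript NM_176933, read 4.98, 5.17, 5.42 and 5.06 in epithelium replicates 1 to 4 and 4.67, 4.75, 4.67 and 4.72 in mesenchyme replicates 1 to 4. Its groups did not overlap, and its difference of 0.46 (SE 0.10, limma adjusted p = 0.0045 over all probes) was called higher in the epithelium. For Dusp4 the call thus depended on the probe.

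Il17rd read 5.78, 5.97, 6.04 and 5.85 in epithelium replicates 1 to 4 and 5.90, 6.10, 6.10 and 6.22 in mesenchyme replicates 1 to 4. The groups overlapped, with the mesenchyme sample higher on 4 of 4 arrays (-0.37 to -0.06). The difference was -0.17 (SE 0.09, 95% interval -0.37 to 0.03, limma adjusted p = 0.149). The other probes, both to NM_134437, gave -0.70 (SE 0.13, limma adjusted p = 0.00270 over all probes), called higher in the mesenchyme, and 0.21 (SE 0.11, limma adjusted p = 0.159 over all probes), not called. Over all 33325 probes of named genes, 41.4% were called.

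**Figure D3:**
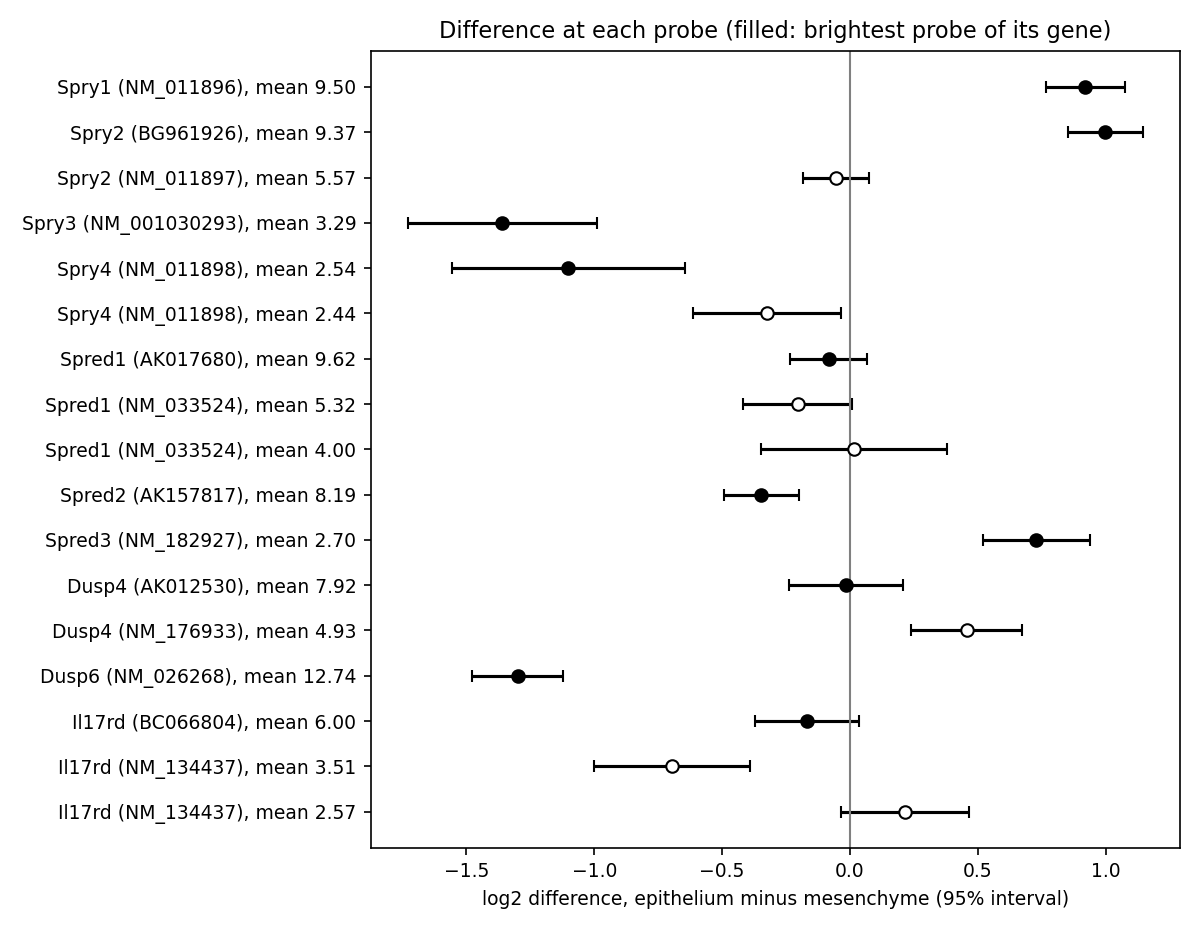
Difference at each probe of the 10 genes with a value in all samples (horizontal axis, epithelium minus mesenchyme, log2, with 95% interval), with the brightest probe of each gene filled and the others open. The open probes of Spry2 (-0.05), Spry4 (-0.33) and Dusp4 (0.46) and one of Il17rd (-0.70) lie apart from the filled probe of their gene, with intervals that do not overlap.

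The genes whose pattern over the 8 samples was most like that of Spry2 were Myo10, an unconventional myosin, Asb2, a substrate receptor of a ubiquitin ligase, and Pfn2, an actin-binding profilin (Pearson's r = 0.999 for each). For Spry3 they were Gnpnat1, an enzyme of hexosamine synthesis (r = 0.992), Daglb, a diacylglycerol lipase (r = 0.984), and Epha8, an ephrin receptor (r = 0.983). These correlations describe 8 samples in 2 tissues that share arrays. For Spry2 they used the brightest probe only, not the dimmer probe that showed no difference. Myo10 (0.78), Asb2 (2.93) and Pfn2 (1.12) were also higher in the epithelium. Gnpnat1 (-0.41), Daglb (-0.36) and Epha8 (-0.95) were higher in the mesenchyme, as Spry3 was. In both sets, r over both tissues includes the difference between them. The Spry3 signals also lay on the shared steps of the dim range. The matches were picked as the highest among all genes tested.

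The upstream genes of the same pathway were read from the same fit. Of 6 FGF ligands, the test called 1 on the epithelial side and 3 on the mesenchymal side, and the other 2 (Fgf2 and Fgf7) were not called. Fgf2 and Fgf7 lay among the dimmest 30% of genes, of which 17.8% were called. The median difference of the 6 ligands was -0.37. Fgf10, the ligand of FGFR2b, read 3.08 to 3.77 over the epithelium samples and 7.33 to 7.77 over the mesenchyme samples, a difference of -4.13 (SE 0.16, limma adjusted p = 6.20e-08). Fgf9, a ligand known from the mesothelium and the early lung epithelium, was higher in every mesenchyme sample (-2.50, SE 0.08, limma adjusted p = 1.97e-08). Fgf18 was also higher in the mesenchyme (-0.40), and Fgf1 was higher in the epithelium (0.95) at signals within the dimmest 30% of genes, with 0.13 at its other probe.

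Of 24 listed genes for FGF receptors and the ERK cascade, 18 were tested and the others were not analysed here. Of the 18, 5 were called on the epithelial and 3 on the mesenchymal side and 10 were not called, and the median was -0.01. With the array as a block the counts were 8 and 5. Fgfr2, the gene of the FGF10 receptor, read 7.37 to 7.67 over the epithelium samples and 5.93 to 6.29 over the mesenchyme samples, a difference of 1.36 (SE 0.10, limma adjusted p = 5.72e-06). Fgfr4 (2.89) and Fgfr3 (0.65), which encode further FGF receptors, were likewise higher in the epithelium. The 3 probes of Fgfr4 ranged from 0.94 to 2.89 and those of Fgfr3 from 0.54 to 0.97. The scaffold gene Ksr1 was higher in the mesenchyme (-0.98, with -0.52 at its other probe). Within the cascade, the Ras gene Nras (0.51) and the exchange factor gene Sos1 (0.38) were higher in the epithelium and the adaptor genes Shc1 (-0.60) and Gab1 (-0.48) were higher in the mesenchyme. The kinase genes Braf (0.12) and Map2k1 (-0.09) were not called, and with the block Braf was (limma adjusted p = 0.0387) and Map2k1 was not (limma adjusted p = 0.0930).

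Of 8 other MAP kinase phosphatase genes, 7 were tested and all 7 were called, 4 on the epithelial and 3 on the mesenchymal side (median 0.20). All 7 lay outside the dimmest 30% of genes, and 58.0% of all genes outside it were called. Dusp5 was not analysed here. Dusp2, a nuclear phosphatase, read 7.46 to 7.75 over the epithelium samples and 11.08 to 11.22 over the mesenchyme samples (-3.54, SE 0.08, limma adjusted p = 3.99e-09). Dusp10 (-1.61) and Dusp1 (-1.24), whose products act on JNK and p38 among others, were also higher in the mesenchyme. Dusp8 (1.41), Dusp16 (1.11), Dusp9 (1.11) and Dusp7 (0.20) were higher in the epithelium, and of these Dusp9 and Dusp7 encode cytoplasmic phosphatases that prefer ERK, as Dusp6 does.

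Of 12 other negative regulators of receptors and Ras, the test called 5 on the epithelial and 2 on the mesenchymal side and left 5 uncalled (median 0.14), and with the array as a block it called 6 and 2. Lrig1, an inhibitor of the EGF receptor family, was higher in the epithelium by 1.42 (SE 0.05, limma adjusted p = 3.61e-08), as was Fgfrl1, a receptor without a kinase domain, by 0.95. Rasa3, a GTPase-activating protein of the Ras group, was higher in the mesenchyme (-1.38), as was the ubiquitin ligase gene Cbl (-0.58, its 3 probes ranging from -0.58 to -0.20). Nf1, the gene of the neurofibromin that Spred1 recruits, was not called (-0.08, SE 0.07, limma adjusted p = 0.405).

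Of 11 genes known to respond to ERK, 4 were called on the epithelial and 5 on the mesenchymal side, 2 were not called, and the median was 0.17. The 3 PEA3 factors did not go one way. Etv5 read 9.36 to 9.41 over the epithelium samples and 6.13 to 6.31 over the mesenchyme samples (3.17, SE 0.06, limma adjusted p = 2.12e-09), whereas Etv1 (-1.90, limma adjusted p = 3.64e-07) and Etv4 (-0.51, SE 0.07, limma adjusted p = 0.000245) were higher in the mesenchyme. Etv1 and Etv4 were each read by 1 probe. The paper lists Etv4, with Etv5, among the epithelial factors lowered by FGF10 inhibition, and the side found here for Etv4 differs from that placement. The lowering was measured in whole lungs, and it is another measure than a difference between tissues. The immediate early gene Egr1 (-2.60) and Myc (-2.16) were higher in the mesenchyme, and Fos (1.51) was higher in the epithelium. Both signs were thus found among the inhibitors and among the responsive genes, and all lists were counted beside 21.2% and 24.8% of all genes called in the 2 directions.

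**Figure D4:**
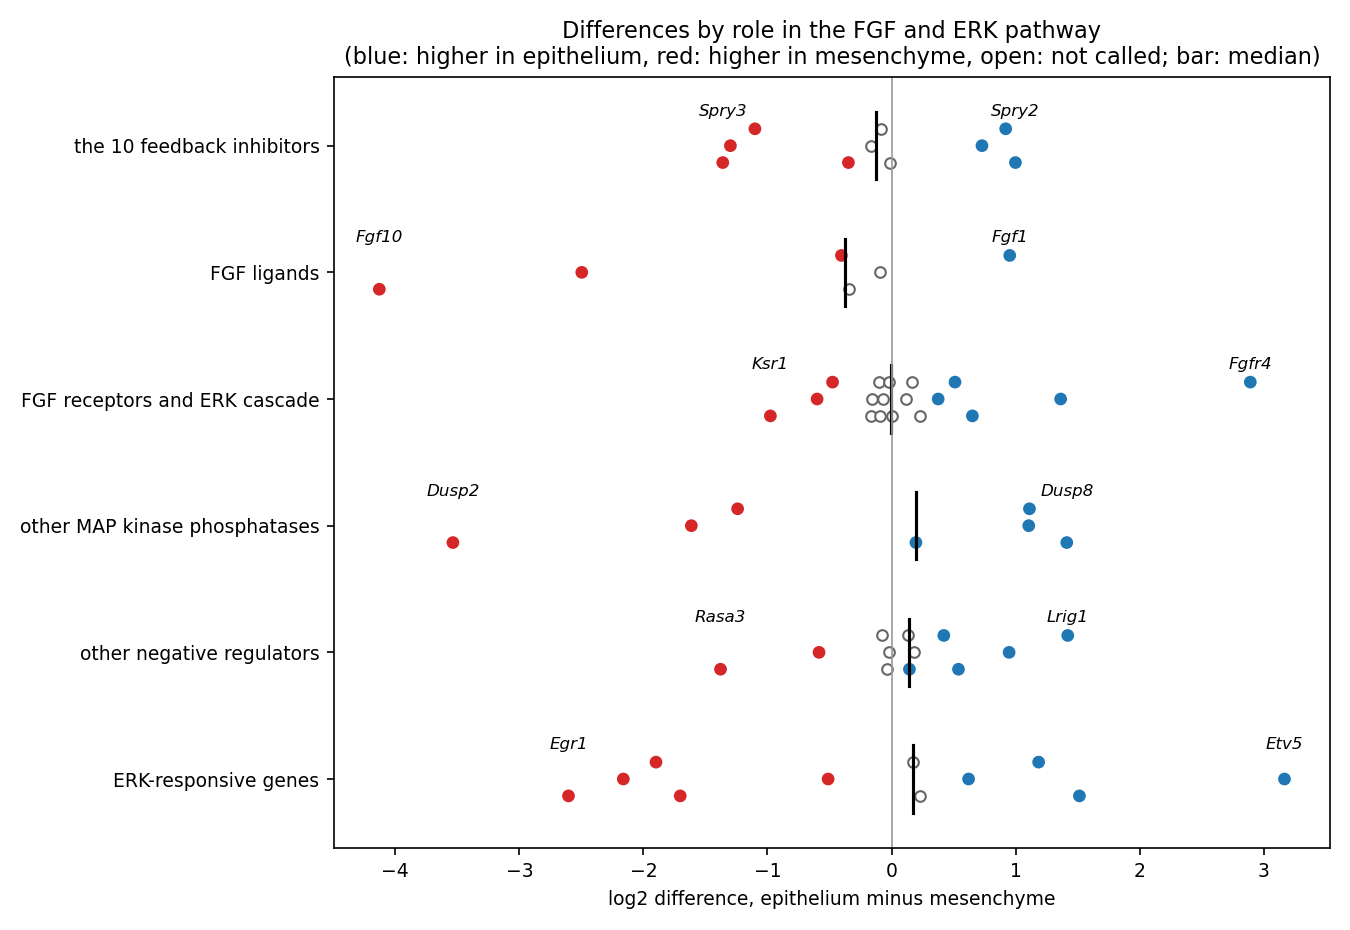
Difference between the tissues (horizontal axis, epithelium minus mesenchyme, log2) for the 10 feedback inhibitors and 5 lists of genes of the same pathway, each point the brightest probe of a gene and each bar a list's median. Each list holds called genes on both sides of 0, from Fgf10 at -4.13 and Dusp2 at -3.54 to Fgfr4 at 2.89 and Etv5 at 3.17.

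The tissue labels were checked with marker genes. All 10 epithelium markers were higher in the epithelium (summed linear signal 73471 to 80789 against 3889 to 8426) and all 9 mesenchyme markers were higher in the mesenchyme (20106 to 21507 in the epithelium against 61023 to 65444). The upper end of the mesenchyme range for the epithelium markers came from mesenchyme replicate 4, in which Krt8 read 12.25 beside 8.95 to 9.42 in the other mesenchyme samples. Markers of other cells moved with both tissues. Each summed signal below covers all tested genes of its list, including any that were not called or went the other way. In the mesenchyme, all 7 endothelium markers (361 to 410 against 5310 to 5510), 3 of 4 mesothelium markers (90.1 to 110.3 against 1271 to 1397), 4 of 4 tested leukocyte markers (318 to 340 against 1224 to 1318) and 5 of 5 tested erythroid markers (3649 to 4301 against 66649 to 73275) were higher. In the epithelium, 5 of 6 smooth muscle markers (45551 to 50201 against 7000 to 8365) and 4 of 4 tested neural markers (603 to 640 against 277 to 305) were higher, and Msln was the mesothelium marker higher there. Their part in the differences of the 10 genes was not tested. Samples of one tissue correlated at 0.995 to 0.997 over all genes and samples of different tissues at 0.964 to 0.968.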

How the data were processed

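Gene expression was measured on 4 arrays, each with 1 epithelium and 1 mesenchyme sample. The deposited values are log2 signals for each feature and sample. The authors corrected spot signals for background (normexp on negative controls, offset 1), took logarithms and applied quantile normalization with limma. No source names the logarithm's base, which was read as 2 from the range of the values, so folds rest on that reading. The methods also describe averaging of replicate spots, which the deposited rows do not show, and arrays with Cy3 alone and 3 replicates, whereas the labels give 2 dyes and 4 replicates. The number of arrays limits the precision.

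Probes were named from the platform annotation. Of 45220 features, 33653 had 1 gene, 56 had several and 11511 had none, and RefSeq's gene table (GRCm38.p6) held 33517 of the 33653. Features with a missing value (523) were left out. The brightest probe stood for each gene. The 2 tissues were set against each other in limma 3.58.1 (lmFit, then eBayes; R 4.3.3), unpaired as in the methods and two-sided, with Benjamini-Hochberg adjustment over 18996 genes. A second fit covered 33325 probes. The fit was tested on simulated data. Figures were drawn with matplotlib 3.10.9.

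The members and the gene lists were chosen with earlier results of these data known. Named genes were all members, up to 4 genes of each list with the largest called difference of one sign on all arrays, Fgf10, Fgfr2, Etv4 and Etv5, and for sequences the members with the largest differences that the promoter table held. Further list genes named beside them (Fgf2, Fgf7, Nras, Sos1, Shc1, Gab1, Braf, Map2k1, Dusp7, Dusp9, Dusp16, Nf1, Fos) were picked with their values in view. Epithelium and mesenchyme samples of one number shared an array by the labels. Their deviations from the group means correlated at 0.35, 0.62, 0.53 and 0.47. Those of all other pairs lay below 0, which centring on the group means favours. As samples of one number share an array, the check cannot tell paired tissue from a shared array. Alternatives were the array as a block, other choices of probe, a filter on dim genes, median centring, a trended prior, missing values kept, and leaving out samples.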

Additional observations from a re-analysis of the deposited data

Results flagged for a closer look

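The 78 groups listed for this check were of 4 samples each, except those of the second Spred2 probe. That probe lacked values on array 4 and was passed over. Among the groups examined, 5 had 1 sample set apart from the others by Dixon's criterion, which chance flags in about 1 group in 20. Mesenchyme replicate 4 of Spry3 read 3.74 where the others read 4.02 to 4.05. Epithelium replicate 2 of the dimmer Spry4 probe read 2.05 where the others read 2.34 to 2.37. Epithelium replicate 2 of a dimmer Spred1 probe read 5.08 where the others read 5.26 to 5.28. Mesenchyme replicate 4 of Rasa3 read 10.73 where the others read 11.18 to 11.22. Epithelium replicate 2 of Etv5 read 9.41 where the others read 9.36. In each case the deviation was smaller than the difference between the tissues at that probe or, for Spred1 and the dimmer Spry4 probe, the tissues were not called different.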

How the results depend on the processing

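The array as a block changed no call of a member (3 higher in the epithelium and 4 higher in the mesenchyme), and over all genes it gave 5035 and 5877 calls instead of 4024 and 4704. Leaving out the dimmest 30% of genes left 2 members higher in the mesenchyme (Spry2 and Spry1 stayed higher in the epithelium), because Spry3, Spry4 and Spred3 were then not tested. The choice of probe turned the sign of several members. With the dimmest probe, Spry2 was -0.055, Spred1 0.016, Il17rd 0.21 and Dusp4 0.46 (limma adjusted p = 0.00629), and Spry4 was no longer called (-0.33, limma adjusted p = 0.0857). With the mean over probes, Dusp4 was 0.22 (limma adjusted p = 0.0670) and Il17rd became called (-0.22, limma adjusted p = 0.0154). Leaving out samples gave 3 and 4 called members each time, with 3431 to 3870 and 3999 to 4570 genes called in all. It moved Dusp4 between -0.090 and 0.025, with the sign turned to 0.0098 without epithelium replicate 1, 0.025 without epithelium replicate 4, 0.012 without mesenchyme replicate 2, 0.016 without mesenchyme replicate 3, 0.024 without array 1 and 0.0033 without array 2. Among the other uncalled members, Spred1 moved from -0.083 to -0.037 without mesenchyme replicate 3 and Il17rd from -0.169 to -0.103 without array 4. Weak signals limit Spry3, Spry4 and Spred3.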
